A study of Mus musculus with 2 samples.

Results

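Group 2 innate lymphoid cells (ILC2s) of the mouse dorsal meninges are described here from single-cell RNA sequencing of a Sham and a mild traumatic brain injury (TBI) library. A cell entered the group, called ILC2-like below, when it held at least 1 UMI (unique molecular identifier, the count of 1 captured RNA molecule) of at least 2 of 7 genes, among them Il1rl1, Gata3, Il17rb, Rnf128, Ccdc184 and Stab2. One of these had to be Il1rl1, Il17rb or Rnf128, and the cell could hold no UMI of Cd3d, Cd3e, Cd79a, Ncr1, C1qa or Cdh5, which mark T cells, B cells, natural killer (NK) cells, macrophages and endothelium. The rule selected 187 of 5816 filtered cells, of which 86 were Sham and 101 were TBI.

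ILC2s are tissue-resident lymphocytes that carry no rearranged antigen receptor and depend on the transcription factor GATA3. They are activated by the alarmins IL-33, IL-25 and TSLP, which barrier cells release on damage, and they answer with type 2 mediators such as IL-5, IL-13 and amphiregulin. In the meninges they have been described in the dura, close to the venous sinuses.

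Both groups were male wild-type C57BL/6 mice (C57BL/6J in the study's methods) of 10 weeks of age whose dorsal meninges were taken 1 week after the procedure. The TBI group received 1 closed-skull hit over the right inferior temporal lobe, and the Sham group underwent the same handling without the hit. The dorsal tissue lies outside the impact site, and live single cells were sorted without a lineage marker before droplet capture. Each library pools 5 mice, so each group is 1 sample, the spread between animals is not known and no test between the groups could be made.

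The intervals given below are 95% exact binomial intervals, except those of the ratio of TBI to Sham shares, which are 95% intervals symmetric on the log scale. All of them cover counting error only. The filtered Sham library held 7866611 UMIs in 2043 cells and the filtered TBI library 13940740 UMIs in 3773 cells. The ILC2-like cells contributed 279662 and 304315 of these UMIs, with a median of 3408 UMIs per cell in Sham and 3096 in TBI. Levels are given as CPM, the UMIs of a gene summed over the cells of a population in a library and scaled to a total of 1000000 UMIs. The libraries shared 14 barcodes among their filtered cells. None of these was ILC2-like in both libraries, and 2 ILC2-like cells had a barcode that was also a filtered cell of the other library.

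Il1rl1, which encodes the IL-33 receptor ST2, lies on the plus strand at chr1:40429570-40465415 (GRCm38) and has a pair of RefSeq start sites. Its promoters and that of Nmur1, the receptor for the neuropeptide neuromedin U, are shown because both genes belong to those that separated the ILC2-like cells from T and NK cells, and because GATA3 belongs to the factors that bind GATA motifs. The 250 bases before each start were searched on both strands for the motif AGATAA, the motif AGATAG, the motif TGATAA and the motif TGATAG, and matches are in capitals. The sequences are from RefSeq, build GRCm38.p6, written on the strand of the gene.
Il1rl1 upstream start, plus strand, chr1:40429320-40429569: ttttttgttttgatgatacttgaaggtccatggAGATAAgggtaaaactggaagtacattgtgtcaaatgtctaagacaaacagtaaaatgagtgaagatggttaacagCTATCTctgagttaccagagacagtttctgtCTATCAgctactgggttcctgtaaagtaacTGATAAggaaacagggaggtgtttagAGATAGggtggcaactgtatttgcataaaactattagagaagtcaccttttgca
Il1rl1 downstream start, plus strand, chr1:40439379-40439628: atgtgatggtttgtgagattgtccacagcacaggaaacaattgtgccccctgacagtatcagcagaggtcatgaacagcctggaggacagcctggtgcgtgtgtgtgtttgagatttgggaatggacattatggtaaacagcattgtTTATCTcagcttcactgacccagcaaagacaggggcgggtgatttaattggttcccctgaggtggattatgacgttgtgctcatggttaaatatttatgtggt
Nmur1, minus strand, chr1:86388142-86388391: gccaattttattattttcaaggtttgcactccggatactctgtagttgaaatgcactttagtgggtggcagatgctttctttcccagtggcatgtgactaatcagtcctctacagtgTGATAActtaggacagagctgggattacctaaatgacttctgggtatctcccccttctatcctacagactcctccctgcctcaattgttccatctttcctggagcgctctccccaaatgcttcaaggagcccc

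The upstream Il1rl1 window held 5 matches, at 217, 141, 110, 80 and 54 bases before the start, while the downstream window held 1. Each of the 2 Nmur1 windows held 1 match, and the one shown has it at 133 bases before the start. Among 32851 promoter windows of the same length, 26.5% held at least 1 match and 14 (0.0426%) held 5 or more. Of the 15 genes looked up, which were the 12 leading genes against T and NK cells and the remaining counted genes, 13 had a promoter window, and 4 of these 13 held a match (Il1rl1, Nmur1, Alox5 and Lpcat2). That is 30.8% of the genes, against 29.7% of all genes with a window. The Gata3, Rnf128, Il17rb and Slc7a8 windows did not contain these letters. Cysltr1 had no window in the table.

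The genes that chose the cells are given as a description. Il1rl1 had 153 UMIs in 69 Sham cells and 174 UMIs in 82 TBI cells, or 547 and 572 CPM. Gata3 had 211 UMIs in 70 Sham cells and 219 UMIs in 80 TBI cells, or 754 and 720 CPM. Rnf128, which encodes the ubiquitin ligase GRAIL, had 165 UMIs in 58 Sham cells and 156 UMIs in 70 TBI cells. Over both libraries, Il1rl1 was detected in 80.7% of the cells, Gata3 in 80.2% and Rnf128 in 68.4%. Il17rb, the IL-25 receptor subunit, had 34 UMIs in 27 Sham cells and 47 UMIs in 32 TBI cells. Detection of Il17rb rested mostly on single UMIs, since 20 of 27 Il17rb-positive Sham cells and 23 of 32 Il17rb-positive TBI cells had exactly 1.

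**Figure D1:**
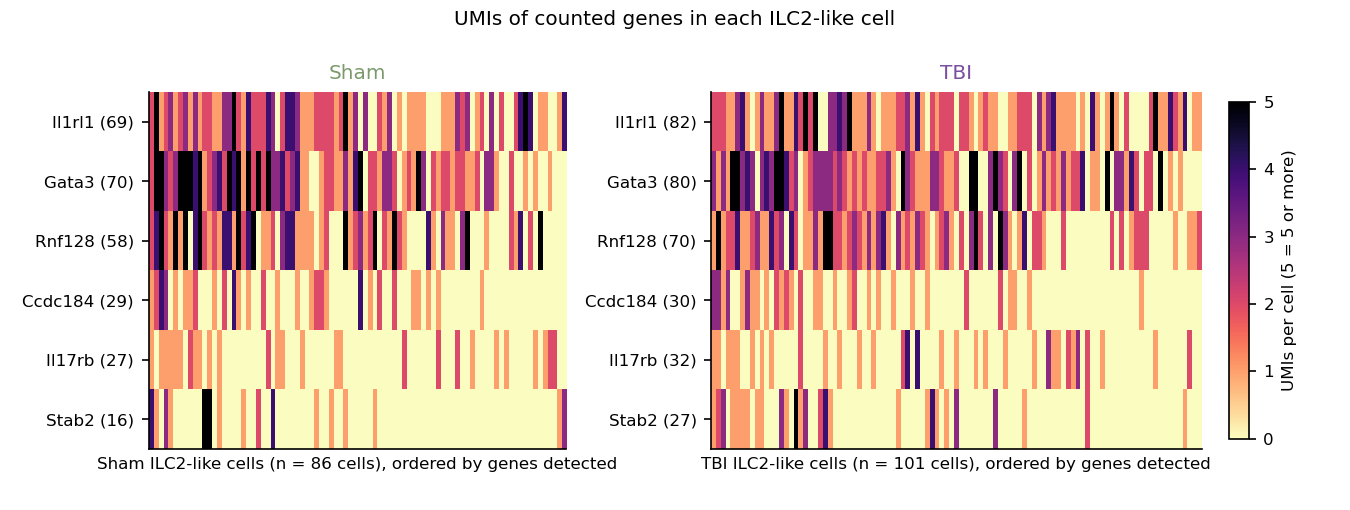
UMIs of 6 of the 7 counted genes (rows, with the number of cells in which each was detected) in every ILC2-like cell (columns) of the Sham library (n = 86) and the TBI library (n = 101), ordered by the number of genes detected. Il1rl1, Gata3 and Rnf128 fill most columns in both libraries, while Il17rb and Stab2 are found in 59 and 43 of the 187 cells.

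Codetection of the counted genes is set in part by the rule, which asks for 2 of them, and is given as a description. A UMI of both Il1rl1 and Il17rb was present in 18 of 86 Sham cells and 22 of 101 TBI cells, Il17rb without Il1rl1 was present in 9 and 10 cells, and Rnf128 without either receptor was present in 8 and 9 cells. Stab2, a scavenger receptor gene, was found in 16 Sham and 27 TBI cells, of which 15 and 22 had Il1rl1.

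Cells near the limit of the rule differed in depth. The 46 cells with exactly 2 of the 7 genes had a median of 822 UMIs in Sham (20 cells) and 3004 UMIs in TBI (26 cells), while the 49 cells with 3 genes had medians of 3360.5 and 2879. Just outside, 54 Sham and 73 TBI cells held Il1rl1, Il17rb or Rnf128 as the only one of the 7 genes, and no excluded gene. In most of them the gene was Il1rl1, and their medians were 10595 and 7727 UMIs. Those outside cells had 35.9 and 28.7 CPM of Il7r, against 998 and 1084 CPM in the ILC2-like cells, and 2151 and 2169 CPM of Cd209a, a dendritic cell lectin. A further 6 Sham and 7 TBI cells met the positive part of the rule but held Cd3d or Cd3e.

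To see where the ILC2-like cells fall without the 13 genes of the rule, all filtered cells were clustered with those genes removed. Of 187 ILC2-like cells, 180 (96.3%) fell in 1 of 25 clusters, which held 398 cells in all, 185 from Sham and 213 from TBI. The same cluster held 116 T cells, 6 cells with type 17 genes and no NK cell. Of its 103 other Sham and 115 other TBI cells, 67 and 85 held an excluded gene. The clustering therefore did not part the ILC2-like cells from T cells. At a Leiden resolution of 0.4, 180 of them lay in a cluster of 708 cells with 345 T cells and 36 NK cells. The study named a T cell sub-cluster marked by Il1rl1 and Gata3 Th2 cells. Its overlap with the ILC2-like cells was not tested. The 7 remaining cells lay in clusters led by Cd209a, Cd209c and Ccl17 (3 Sham cells), by Trdv4 and Cd163l1 (1 Sham cell), by Pclaf and Mki67 (1 TBI cell), by Gpihbp1 and Igfbp3 (1 TBI cell) and by Kcna1 and Gfra3 (1 TBI cell). One TBI cell inside the main cluster held 274 UMIs of the mast cell protease gene Mcpt4. These 8 cells (4 Sham, 4 TBI) are left out where a result is given for the 179 cells kept, a choice made after seeing the data.

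ILC2-like cells made up 4.21% of filtered Sham cells (86 of 2043, interval 3.38 to 5.17) and 2.68% of filtered TBI cells (101 of 3773, interval 2.19 to 3.24). The TBI share was 0.636 times the Sham share, and the intervals of the shares did not overlap. NK cells, taken as cells with at least 2 of Ncr1, Klrb1c, Eomes, Prf1 and Gzma and no T cell, B cell, macrophage or endothelial gene of the rule, made up 3.92% of Sham cells (interval 3.12 to 4.85) and 1.96% of TBI cells (interval 1.54 to 2.46), a ratio of 0.501. T cells, taken as cells with at least 2 of Cd3d, Cd3e, Cd3g and Trac, and no UMI of Cd79a, C1qa, Cdh5 or Ncr1, made up 6.90% (interval 5.84 to 8.09) and 5.94% (interval 5.20 to 6.74), a ratio of 0.860. Among ILC2-like, T and NK cells together, ILC2-like cells were 28.0% (86 of 307, interval 23.1 to 33.4) in Sham and 25.3% (101 of 399, interval 21.1 to 29.9) in TBI. Within these lymphocytes the intervals overlapped. Of cells with a UMI of Ptprc, which encodes the leukocyte antigen CD45, ILC2-like cells were 5.78% in Sham and 4.34% in TBI. The 1655 Sham and 3234 TBI cells with at least 1000 UMIs were also thinned to 1000 UMIs and the rule was applied again. Cells with fewer UMIs were left out. The shares were then 1.93% (interval 1.33 to 2.72) and 1.64% (interval 1.23 to 2.14), with overlapping intervals. The number of ILC2s in the tissue was not measured.

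**Figure D2:**
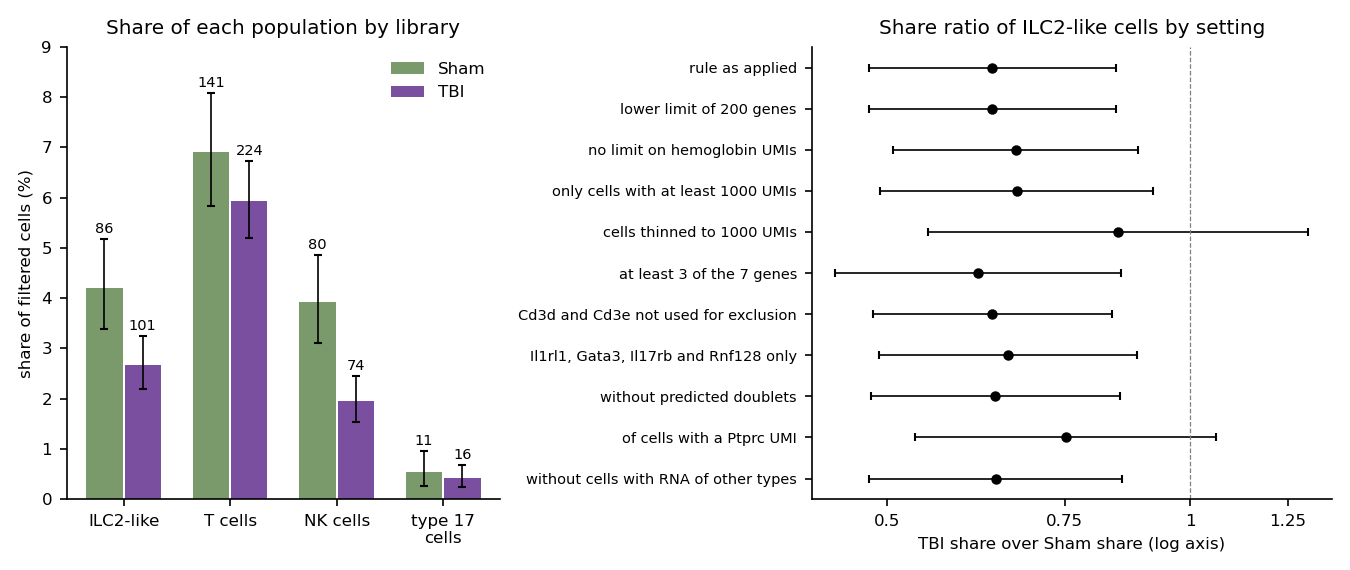
Left, share of filtered cells (%) that were ILC2-like, T, NK or type 17 cells (at least 2 UMI-positive genes of a type 17 list that includes Il23r, Il17re, Il17a and Il17f) in the Sham and TBI libraries, with exact 95% binomial intervals and the number of cells above each bar. A type 17 cell could also be counted as a T cell. Right, ratio of the TBI to the Sham share of ILC2-like cells on a log axis with its 95% interval under each setting. The ratio is 0.636 by the rule as applied and 0.848 after thinning, and the interval passes 1 after thinning and among cells with a Ptprc UMI.

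The comparison with T and NK cells asked what else these cells carried beyond the genes that chose them. It is a description, because the cells were chosen by genes of the same libraries. Of 3793 genes with at least 20 UMIs over the compared populations in each library, 94 (2.48%) were at least 2-fold higher in ILC2-like cells than in both T and NK cells in both libraries, and 90 (2.37%) were at least 2-fold lower. A count of 0 allows up to 5.04 CPM in Sham T cells, 3.16 CPM in TBI T cells, 9.74 CPM in Sham NK cells and 11.8 CPM in TBI NK cells (3 UMIs of each sum). Counting genes of the lists against a single comparator, the background was 3.02% higher and 4.46% lower against T cells, and 4.45% higher and 6% lower against NK cells.

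The 12 genes that led this comparison included Slc7a8, Dach2, Rnf128, Nmur1, Alox5, Il1rl1, Il17rb, Ptgir, Hs3st1, Lpcat2 and Cysltr1, of which Rnf128, Il1rl1 and Il17rb belong to the rule. Slc7a8, an amino acid transporter, had 48 UMIs in 29 Sham cells and 76 UMIs in 46 TBI cells (172 and 250 CPM). T cells had 0 and 3.16 CPM of Slc7a8 and NK cells none. Dach2, a transcriptional cofactor, had 34 UMIs in 26 Sham cells and 28 UMIs in 24 TBI cells, and was not detected in T or NK cells of either library. Its level was at least 24.1-fold above T cells in Sham and at least 29.2-fold in TBI. Hs3st1, a heparan sulfate sulfotransferase, had 75.1 and 118 CPM, against 1.68 and 4.21 CPM in T cells.

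Receptors of lipid mediators are given here with Alox5 and Lpcat2, which belong to none of the lists and were grouped with them after their values were seen. Ltb4r1, a leukotriene B4 receptor, had 132 UMIs in 54 Sham cells and 144 UMIs in 69 TBI cells (472 and 473 CPM), against 75.7 and 70.5 CPM in T cells. The 11 Sham and 16 TBI type 17 cells had 355 and 449 CPM of Ltb4r1, close to the ILC2-like level. Type 17 cells were not kept apart from T cells, and 8 of the 11 Sham and all 16 TBI cells held Cd3d. For type 17 cells, 3 UMIs are 59.2 CPM in Sham and 44.9 CPM in TBI. NK cells had no Ltb4r1 UMI, and the level was at least 48.4-fold higher in Sham and 39.9-fold higher in TBI than their floor. Cysltr1, the receptor for cysteinyl leukotrienes, had 236 and 227 CPM, against 11.8 and 11.6 CPM in T cells. Alox5, the lipoxygenase that starts leukotriene synthesis, had 71.5 CPM in 16 Sham cells and 92.0 CPM in 19 TBI cells and was not detected in T or NK cells. Lpcat2, which makes platelet-activating factor, had 458 and 460 CPM, against 3.36 and 17.9 CPM in T cells. Ptgir, the prostacyclin receptor, had 125 and 92.0 CPM, against 3.36 and 3.16 CPM in T cells. None of these 5 genes differed by 2-fold between Sham and TBI.

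Receptors for neural signals were present in part. Nmur1 had 29 UMIs in 22 Sham cells and 27 UMIs in 21 TBI cells, or 104 and 88.7 CPM, and no UMI in T or NK cells, so that its level was at least 20.6-fold above T cells in Sham and 28.1-fold in TBI. Ramp1, a subunit of the receptor for calcitonin gene-related peptide (CGRP), had 361 and 283 CPM, against 219 and 219 CPM in T cells, a difference under 2-fold. Its partner Calcrl had 5 and 8 UMIs. Calca, which encodes CGRP, was held by few cells, with 35 UMIs in 5 Sham cells and 16 UMIs in 2 TBI cells and none in T or NK cells. Single cells reached 14 and 15 Calca UMIs. Vipr2 had 9 and 8 UMIs, while Vipr1, Chrna7 and Ptgdr2 had none. The list held neuropeptide, amine and lipid receptors together. Of its 9 genes that could be compared with T cells, 5 were higher (Nmur1, Ltb4r1, Cysltr1, Ptgir and the proton-sensing receptor Gpr65) and none lower. Against NK cells 6 of 9 were higher (Nmur1, Ramp1, Ltb4r1, Cysltr1, Ptgir and Gpr183) and none lower.

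Outside the rule, the cytokine receptor genes Il7r, Il2ra, Il9r and Tnfrsf25 were at least 2-fold higher than in T cells in both libraries. Il7r, the IL-7 receptor chain that ILC2s need for survival and that also serves TSLP, had 279 UMIs in 74 Sham cells and 330 UMIs in 92 TBI cells. Its level of 998 and 1084 CPM compared with 417 and 282 CPM in T cells and 52.0 and 47.4 CPM in NK cells. Il2ra had 215 and 220 CPM against 47.1 and 35.8 CPM in T cells, and Il9r 71.5 and 112 CPM against 6.73 and 1.05 CPM. The few type 17 cells had 118 and 135 CPM of Il2ra, nearer to the ILC2-like level than T cells were. Tnfrsf25, the receptor for TL1A, had 122 and 138 CPM against 31.9 and 47.3 CPM in T cells. Crlf2, the TSLP receptor subunit, had 89.4 and 118 CPM and was at a like level in T cells (82.4 and 127 CPM). Il2rb was low, at 50.1 and 16.4 CPM against 447 and 438 CPM in T cells and 1228 and 1102 CPM in NK cells. Of 14 receptor genes compared, 6 were higher and 2 lower than in T cells, and the same numbers held against NK cells; these counts include 2 genes of the rule.

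Transcription factor genes were in part shared with other lymphocytes. Rora, a factor required for ILC2 development, had 59 UMIs in 38 Sham cells and 62 UMIs in 37 TBI cells, or 211 and 204 CPM against 95.8 and 82.1 CPM in T cells. Id2 had 1191 and 1285 CPM, against 698 and 766 CPM in T cells and 1237 and 1220 CPM in NK cells. Bcl11b, at 132 and 161 CPM, was near its T cell level of 143 and 112 CPM and above the 3.25 and 7.90 CPM of NK cells. Pparg, a lipid-sensing nuclear receptor, had 24 UMIs in 19 Sham cells and 10 UMIs in 10 TBI cells, while T cells had 0 and 2 UMIs. Tbx21, which encodes T-bet, had 1 UMI in each library, against 116 and 88.4 CPM in T cells. Tcf7 had 1 UMI in each library, against 175 and 128 CPM in T cells. Of 13 factors compared with T cells, 2 were higher and 3 lower, and Gata3, a gene of the rule, was one of the 2.

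Type 2 cytokine transcripts were sparse. Il5 had 3 UMIs in Sham and 4 in TBI, Il13 had 5 and 2 (17.9 and 6.57 CPM, against 63.9 and 3.16 CPM in T cells), and Areg, which encodes amphiregulin, had 5 and 9. Il9, Il10 and Lif had no UMI, where the floor is 10.7 CPM in Sham and 9.86 CPM in TBI. Il4 had 16 UMIs in 14 Sham cells and 23 UMIs in 19 TBI cells (57.2 and 75.6 CPM), against 6.73 and 13.7 CPM in T cells and none in NK cells. Csf2, which encodes GM-CSF, had 15 UMIs in 12 Sham cells and 23 UMIs in 16 TBI cells (53.6 and 75.6 CPM), against 37.0 and 11.6 CPM in T cells. Tnfsf11, which encodes RANKL, had 52 UMIs in 36 Sham cells and 45 UMIs in 29 TBI cells (186 and 148 CPM), against 52.1 and 44.2 CPM in T cells. The few type 17 cells had 59.2 CPM of Tnfsf11 in Sham and 120 CPM in TBI. The Sham value is at their floor of 3 UMIs, and the TBI floor is 44.9 CPM. Only 1 Sham and no TBI cell held Il4 together with Il13.

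Homing genes were in part undetected. Ccr7, which directs lymphocytes to lymph nodes, had no UMI, nor did Itgae and Ccr6, and S1pr1 had 1 UMI in each library against 85.7 and 66.3 CPM in T cells. Klf2 had 53.6 and 49.3 CPM, against 227 and 155 CPM in T cells and 942 and 557 CPM in NK cells. Cxcr6 had 167 UMIs in 53 Sham cells and 204 UMIs in 78 TBI cells, at 597 and 670 CPM, near the T cell level of 689 and 725 CPM. Ccr2 had 569 and 503 CPM, against 116 and 175 CPM in T cells. Ccr8 and Ccr9, receptors of skin-homing and gut-homing lymphocytes, had 100 and 88.7 CPM and 125 and 105 CPM, and both were past 2-fold over T and NK cells in each library. Of 16 homing genes compared with T cells, 3 were higher and 4 lower. Ly6a, which encodes Sca-1, had 388 UMIs in 71 Sham cells and 465 UMIs in 84 TBI cells (1387 and 1528 CPM), against 783 and 716 CPM in T cells and 35.7 and 19.7 CPM in NK cells. Klrg1 had 20 UMIs in 13 Sham cells and 22 UMIs in 17 TBI cells, and Ctla4, Tigit and Cd28 had none.

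T cell receptor genes were low with the exception of some constant regions. Of 16 genes of a list of T cell receptor and other T cell genes, 13 were lower than in T cells and none higher. Cd3g and Trac are in this list and were among the genes that defined the T cells. Cd3d and Cd3e, which belong to the rule and to that definition, are not in the list. Trac had 0 UMIs in Sham and 1 in TBI, against 272 and 215 CPM in T cells. Trbc1 had 27 UMIs in 18 Sham cells and 20 UMIs in 17 TBI cells. Trbc2 had 56 UMIs in 35 Sham cells and 40 UMIs in 28 TBI cells (200 and 131 CPM), against 335 and 271 CPM in T cells and 1.89 and 4.27 CPM in B cells. NK cells had 153 and 63.2 CPM of Trbc2. Tcrg-C1 had 86 UMIs in 23 Sham cells and 65 UMIs in 29 TBI cells (308 and 214 CPM), against 52.1 and 99.9 CPM in T cells and none in NK cells. Trbc1 and Trbc2, and some of the Tcrg constant genes, are near-identical copies, so the count of each alone is uncertain. Cd3g had 7 UMIs in 4 Sham cells and 26 UMIs in 11 TBI cells.

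Cytotoxic and type 17 genes were close to the floor. The 6 genes furthest below T and NK cells were Ly6c2, Ccl5, Xcl1, Nkg7, Ms4a4b and Ccl4. Ccl5 had 1 UMI in Sham and 2 in TBI, against 3161 and 3822 CPM in T cells, and Nkg7 had 0 and 1 UMI. All 12 cytotoxic genes compared were lower than in NK cells, some of which defined them, and the list summed to 8 and 6 UMIs in ILC2-like cells. The 8 type 17 genes summed to 4 and 1 UMIs. Ighm, the immunoglobulin mu chain, had 67 UMIs in 44 Sham cells and 93 UMIs in 56 TBI cells (240 and 306 CPM), while T cells had 220 and 186 CPM, NK cells 162 and 162 CPM and B cells 2140 and 2085 CPM. The light chain gene Igkc had 0 and 2 UMIs. Within each library the Ighm levels of ILC2-like, T and NK cells lay within 2-fold of each other.

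**Figure D3:**
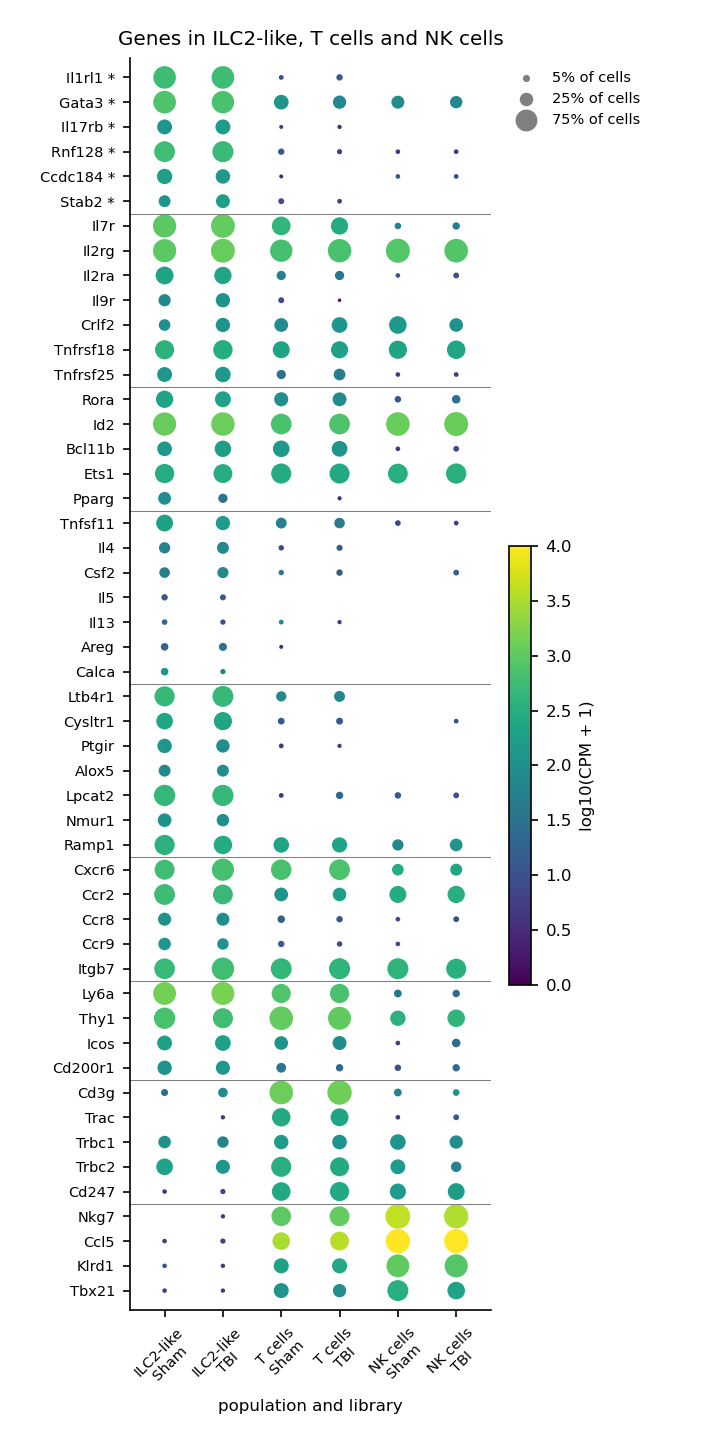
Share of cells with a UMI (dot area) and CPM (colour, log10(CPM + 1)) of genes by role in ILC2-like, T and NK cells of each library; an asterisk marks genes of the rule. Lpcat2 and Nmur1 are higher in the ILC2-like columns than in the T and NK columns (type 17 cells are not drawn), and Trbc2 is present in all 3 populations while Trac is at or near 0 outside T cells.

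The comparison of TBI with Sham asked which genes differed in these cells 1 week after injury. Ratios are log2 of TBI over Sham CPM, with 0.5 added to each UMI sum. Of 4309 genes with at least 20 UMIs, 158 (3.67%) were at least 2-fold higher in TBI and 108 (2.51%) at least 2-fold lower, or 6.17% in either direction, and the median log2 ratio over all genes was 0.04. In sums simulated at these totals with counting error only, 4.67% of unchanged genes passed 2-fold. A gene past 2-fold is therefore not by itself a difference between the groups. The counting interval left out 0 for 308 genes (7.15%), and 161 (3.74%) met both criteria. In the 179 cells kept, 115 of 4017 genes were higher (2.86%) and 82 lower (2.04%), and 87 of the 115 and 62 of the 82 were among those of all 187 cells. Taking the mean over cells of depth-scaled counts in place of the sum gave 242 higher and 237 lower, of which 101 and 72 were shared with the sums.

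The genes of the rule chose the cells in each library, so their ratios between libraries are a description and show nothing on stability. Il1rl1 had a log2 ratio of 0.06 (interval -0.26 to 0.39), Gata3 of -0.07 (-0.35 to 0.21) and Rnf128 of -0.20 (-0.53 to 0.12). Il17rb had 0.34 (-0.32 to 1.03). Outside the rule, Il7r had 0.12 (-0.11 to 0.36) and Ltb4r1 0.00 (-0.35 to 0.36).

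Most of the extremes of the ratio came from 1 or a few cells. Among genes with at least 40 UMIs, the 5 largest ratios were those of Mcpt4, Tpsb2, Cpa3, Cma1 and Stmn1. The first 4 are mast cell genes, and 1 TBI cell held 274 of 276 Mcpt4, 189 of 189 Tpsb2, 69 of 70 Cpa3 and 120 of 124 Cma1 UMIs. One TBI cell held 54 of 57 UMIs of Stmn1, a gene of dividing cells. At the other end, H2-Aa had 399 UMIs in 5 Sham cells and 8 UMIs in 8 TBI cells, and 281, 84 and 32 of the Sham UMIs were in 3 cells. Cd74, the MHC class II invariant chain, had 1308 UMIs in 13 Sham cells, 970 of them in 1 cell, and 92 UMIs in 31 TBI cells. H2-Ab1, H2-Eb1, Cd209a, Napsa, Ifitm3, H2-DMa, Ifi30, Alox5ap and Cst3 were also among the 12 lowest ratios, each with 21 or more of its Sham UMIs in 1 cell. Hba-a2, the remaining one of the 12, was spread over 46 Sham cells. In the 179 cells kept, Cd74 had 31 UMIs in 9 Sham cells and 85 UMIs in 28 TBI cells, a log2 ratio of 1.21 (0.62 to 1.87) in the opposite direction, and 46 of the TBI UMIs were in 1 cell. The Cd74 ratio was 2.14 in T cells and 4.03 in NK cells, from which no cells with RNA of other types were left out. Their H2-Aa RNA was also held by few cells, with 1506 UMIs in 15.2% of TBI T cells. TBI NK cells had 103 H2-Aa UMIs in 10.8% of cells.

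Among genes with at least 40 UMIs, those next in order had their UMIs spread over many cells. Safb2 had 12 UMIs in 12 Sham cells and 36 UMIs in 30 TBI cells, a log2 ratio of 1.42 (0.49 to 2.54) in all cells and 1.32 (0.38 to 2.43) in those kept, but 0.32 as a mean over cells. Exosc8, a subunit of the RNA exosome, had 11 UMIs in 11 Sham cells and 33 UMIs in 30 TBI cells, with 1.42 (0.44 to 2.60) and 1.36. Xlr4a had 18 and 49 UMIs with a ratio of 1.30, and Cbx3, a heterochromatin protein, 13 and 34 UMIs with 1.23. Vav1, which relays antigen and cytokine receptor signals, had 17 UMIs in 17 Sham cells and 44 UMIs in 33 TBI cells, with 1.22 (0.41 to 2.15) and 1.23 in the cells kept. As means over cells, Exosc8 (0.997) and Vav1 (0.77) were no longer past 2-fold, while Xlr4a (1.19) and Cbx3 (1.04) were. In T cells the ratio of Vav1 was -0.06 and in NK cells -0.18; the difference between populations was not tested.

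RNA of other tissue cells also differed between the libraries. Hba-a2, a hemoglobin gene, had 84 UMIs in 46 Sham cells and 20 UMIs in 13 TBI cells, a log2 ratio of -2.17, and was at -3.45 in T cells and -3.39 in NK cells. The sum of 8 hemoglobin genes was 1420 CPM in Sham and 368 CPM in TBI ILC2-like cells. The 7 fibroblast genes summed to 5 UMIs in Sham and 72 in TBI, a log2 ratio of 3.60, with ratios of 4.71 in T cells and 4.42 in NK cells. Igfbp5 was the most abundant of them with 2 and 35 UMIs, and Pdgfra had none. Ttr, a choroid plexus gene, had 18 and 46 UMIs, a log2 ratio of 1.21 and of 0.33 as a mean over cells. In T cells Ttr was at 57.2 CPM in Sham and 2716 CPM in TBI, with 2582 UMIs in 39.3% of the TBI T cells. In NK cells it was at 35.7 and 134 CPM, with 34 UMIs in 37.8% of the TBI NK cells. Sham type 17 cells were at 19664 CPM of Ttr. The part of such RNA in other ratios was not tested.

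**Figure D4:**
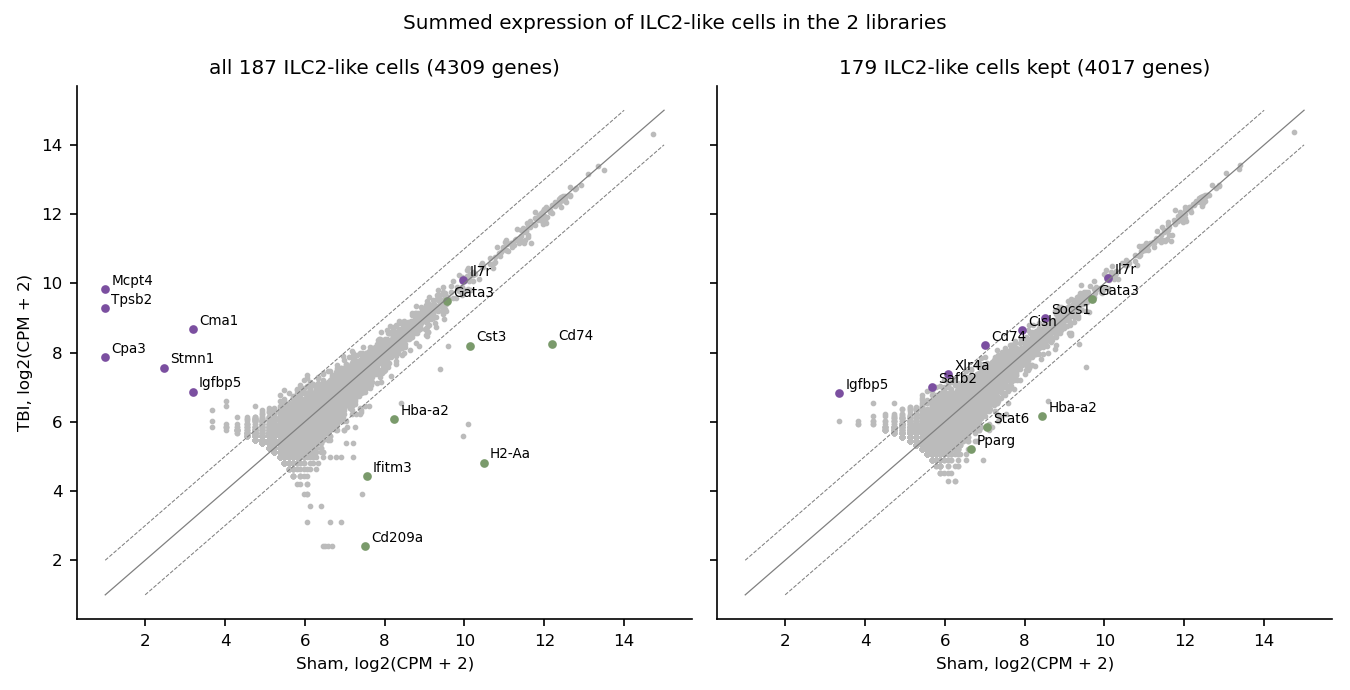
Summed expression of each gene with at least 20 UMIs in Sham (x axis) and TBI (y axis), both log2(CPM + 2), in all 187 ILC2-like cells (left, 4309 genes) and in the 179 kept (right, 4017 genes). The solid line marks equality and dashed lines 2-fold; Mcpt4 and H2-Aa stand far from the lines on the left and fall under the UMI minimum on the right, while Gata3 and Il7r lie near equality in both.

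The counts of list genes past 2-fold compare with 6.17% of all genes in either direction. None of 11 alarmin and growth cytokine receptors passed 2-fold, with a median log2 ratio of 0.24, against 0.04 for all genes. As means over cells the list median was 0.013, against 0.028 for all genes. The 11 include Il1rl1 and Il17rb, and the transcription factors below include Gata3, which chose the cells in each library. Il2rg, the common gamma chain, had 276 UMIs in 74 Sham cells and 355 UMIs in 92 TBI cells, a log2 ratio of 0.24 (0.01 to 0.47). The Il2rg ratio was 0.17 (-0.07 to 0.41) in the cells kept and 0.06 as a mean over cells. Of 9 transcription factors, Pparg alone passed 2-fold, with 24 and 10 UMIs and a log2 ratio of -1.34 (-2.61 to -0.27), or -0.98 as a mean over cells. No homing gene of 11 passed it. Of 4 effector genes that could be compared, Calca passed it (-1.23, -2.20 to -0.36), and its UMIs came from 5 Sham and 2 TBI cells. Of 9 neuropeptide, amine and lipid receptors, Adora2a, an adenosine receptor, passed it with 9 UMIs in 8 Sham cells and 23 UMIs in 20 TBI cells (1.18, 0.07 to 2.53; 1.08, -0.04 to 2.42 in the cells kept; 0.77 as a mean over cells).

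Of 11 cytokine signaling feedback genes, none was 2-fold higher and 1, Stat6, was 2-fold lower, and the list median was 0.02. Cish, a feedback inhibitor induced through STAT5, had 67 UMIs in 43 Sham cells and 118 UMIs in 58 TBI cells, or 240 and 388 CPM. Its log2 ratio was 0.69 (0.25 to 1.15), under 2-fold, and 0.73 (0.27 to 1.21) in the cells kept, against 0.13 in T cells and -0.22 in NK cells. Socs1, another feedback inhibitor, had 91 UMIs in 44 Sham cells and 147 UMIs in 54 TBI cells, with a ratio of 0.57 (0.18 to 0.96), against -0.11 in T cells and -0.27 in NK cells. As means over cells the ratios of both Cish and Socs1 were 0.32. Stat6, the factor downstream of IL-4 and IL-13, had 37 UMIs in 32 Sham cells and 17 UMIs in 15 TBI cells, with -1.22 (-2.17 to -0.38). In the cells kept its ratio was -1.21 (-2.19 to -0.32), and as a mean over cells it was -0.96, under 2-fold. After thinning to 1000 UMIs, which left out ILC2-like cells with fewer, Stat6 was found in 9 of 67 Sham and 1 of 88 TBI cells. Cish was found in 10 and 20 of them.

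Of 12 surface and checkpoint genes, Lgals3 passed 2-fold with 19 UMIs in 4 Sham cells, 13 of them in 1 cell, and 3 UMIs in 2 TBI cells. The median log2 ratio of these 12 genes was -0.06, and in the cells kept none of 10 passed 2-fold. Of 24 interferon-induced genes with enough UMIs, Parp14 was higher (6 and 18 UMIs, 1.39; 0.97 as a mean over cells) and Ifitm3 and Ifi27l2a were lower, and the list median was -0.07. Ifitm3 had 0 and 4 UMIs in the cells kept, under the minimum of 20, and there no gene of the list was lower. None of 10 early response genes passed 2-fold, and Hsp90aa1 had 148 and 107 UMIs with a log2 ratio of -0.59 (-0.96 to -0.22). Of 9 survival genes, Mcl1 was lower with 24 and 10 UMIs (-1.34, -2.61 to -0.27; -1.11, -2.49 to 0.10 in the cells kept). Of the proliferation genes only Stmn1 passed 2-fold, and Mki67 had 0 UMIs in Sham and 2 in TBI. Of 5 genes of the T cell list, Cd3g was higher (1.70, 0.53 to 3.22).

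**Figure D5:**
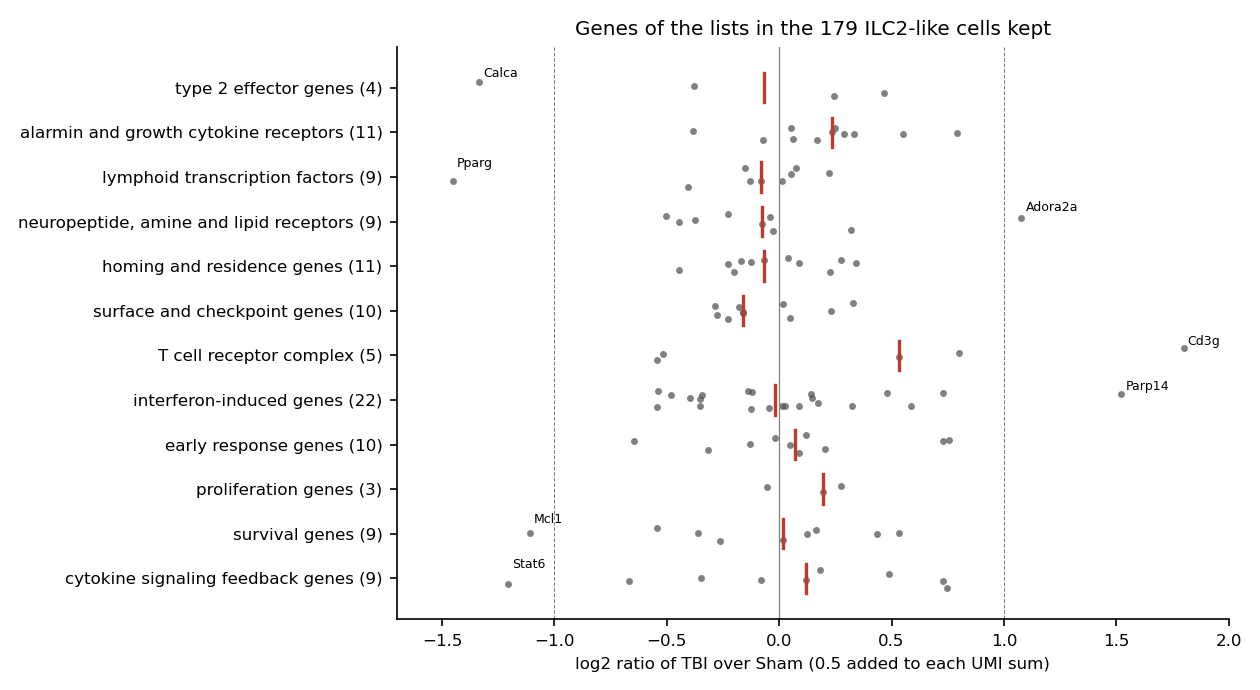
Log2 ratio of TBI over Sham for each gene with at least 20 UMIs of the 12 lists drawn, in the 179 ILC2-like cells kept (points; lists of other cell types are not drawn), with the list median (red bar) and the number of genes in parentheses; dashed lines mark 2-fold. Pparg, Calca, Stat6 and Mcl1 lie below the lower line, Cd3g, Parp14 and Adora2a above the upper one, and no median drawn reaches 2-fold.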

How the data were processed

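The authors sorted live single cells from pooled dorsal meninges, prepared 10x Genomics libraries, and aligned the reads to mm10 with Cell Ranger. The version is 2.1.1 in the submitters' processing notes and 3.1.0 in the matrix headers, and the study's methods name another, earlier one. The deposited values are whole-number UMI counts per gene and barcode, with no normalization and barcodes of low quality still present. No cell annotation was used here.

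A barcode was kept as a cell where it had 150 to 5000 genes, no more than 20% of its UMIs from mitochondrial genes and no more than 5% from hemoglobin genes. The members of the group and the gene lists were chosen with earlier results of these data known. UMIs were summed per population and library, and the log2 ratio was taken with 0.5 added to each sum, over genes with at least 20 UMIs. A gene was counted as higher or lower at 2-fold, without a test. The ratio code was tested on simulated data. Named genes were those of the rule, those of the lists, the 12 highest and 12 lowest TBI over Sham ratios among genes with at least 40 UMIs, and, among genes beyond the fold in both libraries against T and NK cells, the 12 highest and 6 lowest. Genes outside these, such as Tcrg-C1, were named after their values were seen. Clustering used scanpy 1.11.5 (2000 variable genes, 20 principal components, 20 neighbours, Leiden resolution 0.8) after removal of the 13 genes of the rule. Doublets were predicted from 2 simulated doublets per cell and left in: 33 Sham and 114 TBI cells were predicted, among them 1 and 2 ILC2-like cells. A total of 604 Sham and 431 TBI barcodes exceeded the hemoglobin limit. Alternatives covered the cell limits, depth, the rule, the UMI minimum, the value added, the scaling, doublets and cells with RNA of other types. Promoter sequences came from a RefSeq table (GRCm38.p6). Mx1 and Mx2 of the interferon list were not analysed here. Some genes of the rule, the lists and the comparisons are not reported here.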

Additional observations from a re-analysis of the deposited data

How the results depend on the processing

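Each group was 1 library, so the results carry counting error and nothing on animals, and fewer ILC2s cannot be told apart from more cells of other types. No paired analysis was possible because each group has a single sample. The TBI over Sham ratio of the share was below 1 under every setting tried, and 0.848 (0.549 to 1.31) after thinning to 1000 UMIs, where the shares were 1.93% in Sham and 1.64% in TBI. Requiring 3 of the 7 genes gave 3.23% and 1.99%, and counting against cells with a Ptprc UMI gave 5.78% and 4.34%. Genes at least 2-fold higher and lower in TBI numbered 394 and 319 of 6678 with a minimum of 10 UMIs, 14 and 26 of 1739 with a minimum of 50, and 242 and 237 of 4309 as means over cells. They numbered 60 and 56 of 1865 without the cells with 2 UMIs of another cell type's list, of which 5 and 10 were among the 158 and 108 of all cells. In an alternative chosen after seeing the data that did not count Ighm and Kit, they numbered 95 and 94 of 3381, of which 38 and 43 were shared. With at least 50 UMIs in each library, 72 genes were higher and 118 lower than in T cells, and 73 higher and 108 lower than in NK cells, against 166, 245, 172 and 232 with 20. Among the log2 ratios past 2-fold, those that changed sign were Ifi30 (0.11 as a mean over cells), Cd74 (1.40 without cells with 2 UMIs of another list) and, in the 179 cells kept, an alternative chosen after seeing the data, H2-Eb1 (2.66), Cd74 (1.21), Ifi30 (2.17) and Cst3 (0.19). Cst3 was at 0.049 without cells with 2 UMIs of another list, Ighm and Kit not counted. Ratios under 2-fold also changed sign: Junb (0.15) was at -0.11 as a mean over cells, and without cells with 2 UMIs of another list at -0.55, or at -0.12 with Ighm and Kit not counted, where Il4 (0.39) was at -0.11. The early response median (0.15) was at -0.08, -0.37 and -0.20 under the same settings, and medians of other lists near 0 changed sign too. As means over cells, Safb2, Exosc8, Vav1, Ttr, Stat6, Pparg, Adora2a, Parp14, Napsa (-0.99), H2-DMa (-0.90), Alox5ap (-0.49) and Cst3 (-0.68) were no longer past 2-fold, while Jak3, at 0.85 in the sums, was at 1.48. Mcl1 was at -0.60 without cells with 2 UMIs of another list, Ighm and Kit not counted. In all, 21 values of single genes and 4 list medians moved, against 333 and 109 that kept within 0.5 (single genes under 2-fold) or 0.25 (medians) of their value, or stayed past 2-fold. The minimum of 20 UMIs was a choice.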
